A study of Mus musculus with 30 samples.

Results

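The genes of the tricarboxylic acid (TCA) cycle, and those that bring pyruvate into it and govern that entry, were followed in 3T3-L1 cells, a mouse fibroblast line that turns into fat cells when given a hormone mixture. The members were a list of 33 genes chosen by name for their place in the pathway, with earlier results of these data known. Of these, 32 had a probe, out of 14763 named genes in 19231 entries (a gene, or a probe without a gene name). Mpc2, the partner of Mpc1 in the mitochondrial pyruvate carrier, was not analysed here. Each of 30 samples was hybridised on a 2-colour array against one reference, a mixture of equal aliquots of control and exposed samples. The arrays fell into 10 groups of 3. All groups were the same line, exposed for 10 days from 2 days after confluence in medium with 10% serum and harvested on day 10. The solvent control received DMSO at 0.1%. The MDI group received isobutyl methylxanthine (0.5 mM), dexamethasone (0.25 µM) and insulin (10 µg/mL) for 48 hours and then insulin alone for 8 days. Each of the other 8 groups received 1 agent at a dose that the labels do not give. By their common abbreviations 2 are phthalates, DEHP (di(2-ethylhexyl) phthalate) and BBP (benzyl butyl phthalate). TBT commonly stands for tributyltin, an organotin, BPA for bisphenol A, and ROSI for rosiglitazone, a drug that activates PPARγ. The labels PP, BP and EB are kept as codes. 3T3-L1 is one clonal line in a dish, without the vessels, nerves and immune cells of adipose tissue. The labels do not say that the 3 samples of a group were grown as separate cultures, so the p-values measure the spread between these samples, which may be partly technical.

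The TCA cycle burns acetyl groups to carbon dioxide in the mitochondrial matrix and hands the electrons to the respiratory chain. Pyruvate made by glycolysis crosses the inner membrane through the mitochondrial pyruvate carrier, and then enters the cycle either as acetyl-CoA, made by the pyruvate dehydrogenase complex, or as oxaloacetate, made by pyruvate carboxylase. In fat cells both routes feed the citrate that leaves the mitochondrion as the carbon source of new fatty acids, and mitochondrial enzymes are known to accumulate as 3T3-L1 cells differentiate.

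Promoter sequence is shown for 6 members, namely Pcx, which had the largest change with MDI, and 5 genes with a motif match (Pdhb, Sdhb, Sdhd, Idh3g and Mpc1), so that the start regions can be set beside the values that follow. In the RefSeq promoter table (GRCm38.p6) 30 of the 33 listed genes had 40 transcription starts, and the 250 bases before each start were searched on both strands for 3 motifs. The NRF1 core GCATGCG, the site of a factor known for nuclear genes of mitochondrial proteins, was in 4 of 40 member starts (10.0%; Ogdh at 2 starts, Pdhb and Sdhb) and in 3.02% of all 32851 starts. The 2 Ogdh starts lie close together and hold the same match, which is therefore counted 2 times. The ETS site CCGGAAG was in 3 of 40 (7.5%; Idh3g, Mpc1 and Sdhd) and in 6.91% of all starts. The element AAGGTCA, bound by oestrogen-related receptors, was in 0 of 40 and in 4.08% of all starts, which says only that these letters are not in these windows. No base of a printed window belongs to more than 1 match, and a match is a string of letters and not a measured binding site. The printed windows of Sdhb, Sdhd and Pcx are the 100 bases next to the transcription start. Those of Idh3g, Pdhb and Mpc1 begin 151, 223 and 250 bases before it and end short of it. In the 100-base windows printed here, 5′ to 3′, the capitals mark the NRF1 core on either strand in Pdhb and Sdhb and the ETS site on either strand in Idh3g, Mpc1 and Sdhd, and both Pcx starts hold none of the 3 motifs in the bases shown.
Pdhb, chr14:8173116-8173215, minus strand: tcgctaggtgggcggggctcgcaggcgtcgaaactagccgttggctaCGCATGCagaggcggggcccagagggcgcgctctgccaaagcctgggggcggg
Sdhb, chr4:140961171-140961270, plus strand: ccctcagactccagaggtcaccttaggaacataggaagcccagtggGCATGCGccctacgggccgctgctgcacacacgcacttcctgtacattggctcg
Sdhd, chr9:50603850-50603949, minus strand: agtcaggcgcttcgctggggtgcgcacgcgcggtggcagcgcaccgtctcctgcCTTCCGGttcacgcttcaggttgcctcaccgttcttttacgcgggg
Idh3g, chrX:73786949-73787048, minus strand: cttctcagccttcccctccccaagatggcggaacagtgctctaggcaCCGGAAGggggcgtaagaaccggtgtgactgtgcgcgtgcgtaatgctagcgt
Mpc1, chr17:8283537-8283636, plus strand: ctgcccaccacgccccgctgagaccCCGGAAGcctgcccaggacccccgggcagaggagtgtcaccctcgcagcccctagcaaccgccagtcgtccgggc
Pcx, chr19:4510372-4510471, plus strand: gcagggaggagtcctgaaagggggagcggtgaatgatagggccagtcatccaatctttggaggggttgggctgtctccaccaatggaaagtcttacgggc
Pcx, chr19:4594219-4594318, plus strand: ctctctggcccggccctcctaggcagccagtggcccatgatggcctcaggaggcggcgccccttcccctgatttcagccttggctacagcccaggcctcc

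A level below is the log2 ratio of a sample to the common reference, so 0 is the level of the mixture, and levels of different genes are not set against each other. A change is the difference of 2 group means on that log2 scale, ± its standard error from limma fitted to all entries, and a gene was called at a Benjamini-Hochberg adjusted p under 0.05 over all 19231 entries. The files hold ratios and no intensities, so it is unknown which probes were above background, and 3 arrays a group limit the precision. Of 10 mature adipocyte markers all were measured, and their mean level per array ran from -2.46 to -2.11 in DMSO, from -0.82 to -0.72 in BPA and from 1.32 to 1.40 in MDI. Of 10 preadipocyte and fibroblast markers 9 were measured, at a mean of 0.15 to 0.18 per DMSO array and -0.47 to -0.35 per MDI array. The mean of the 6 macrophage markers stayed between -0.11 and 0.20 on all arrays. Within this set Lyz2 was called lower in PP against DMSO (-0.52 ± 0.14, adjusted p = 0.0111), where the other macrophage markers were not called. The 3 measured skeletal muscle markers had a mean of 0.084 to 0.19 per DMSO array and -0.18 to -0.17 per MDI array, in which Acta1 changed by -1.04, Tnnt3 by 0.12 and Myog was not called (-0.029). The 3 measured epithelial markers had a mean of -0.088 to -0.034 per DMSO array and 0.16 to 0.23 per MDI array, in which Krt19 changed by 0.76 and Cdh1 (0.0068) and Krt8 (-0.0054) were not called. The part of these in the members' changes was not tested.

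Over the 10 groups the members moved as a block with a few exceptions. The median level of the 32 members was lowest on the DMSO arrays (-0.59 to -0.53), the DEHP arrays (-0.55 to -0.51) and the EB arrays (-0.53 to -0.45), which follow one another without a clear gap. It was -0.24 to -0.20 on the BPA arrays and -0.25 to -0.18 on the BBP arrays, and these overlap. BP (0.0044 to 0.055), PP (0.083 to 0.13), TBT (0.14 to 0.19), ROSI (0.39 to 0.48) and MDI (0.54 to 0.59) followed in that order without overlap. Taken as the mean of the 32 members per array, PP (0.094 to 0.116) lay within TBT (0.080 to 0.119). The median thus separated these 2 groups and the mean did not. By limma's F test over the 10 groups 32 of 32 members varied at an adjusted p under 0.05, where 49.4% of all entries did. The adipocyte markers did not give quite the same order. They were lower in TBT (-0.24 to -0.15) than in PP (-0.031 to 0.029) and BP (0.15 to 0.23), where the member medians ran the other way, and lower in BPA (-0.82 to -0.72) than in BBP (-0.69 to -0.55), where the member medians overlap. With quantile normalization between arrays, which forces arrays of unequal spread to one distribution, the median change against DMSO was 0.52 in TBT and 0.55 in PP, and 0.79 in ROSI and 0.80 in MDI, so the step between TBT and PP turned and that between ROSI and MDI nearly closed. In RNA from whole cultures, fewer fat cells and less RNA of these genes per fat cell cannot be told apart, and the part of the differentiated share in the changes was not tested.

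**Figure D1:**
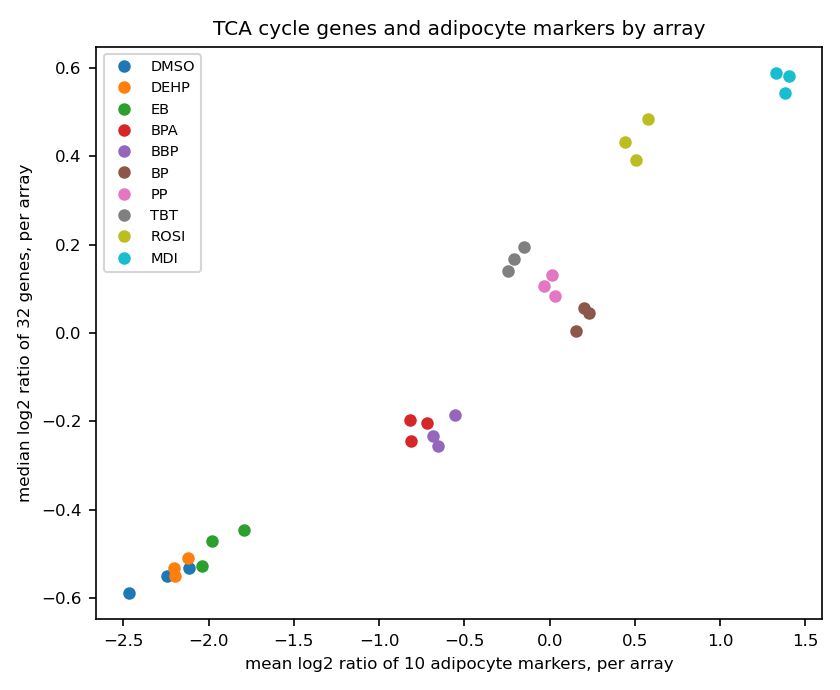
Each point is 1 array: the horizontal axis is the mean log2 ratio of the 10 adipocyte markers and the vertical axis the median log2 ratio of the 32 members, coloured by group. The DMSO, DEHP and EB arrays lie at the lower left, at up to -0.445 in members. In markers the EB arrays (-2.04 to -1.79) lie to the right of the DMSO arrays (-2.46 to -2.11). The MDI arrays lie at the upper right, at 0.54 or above in members.

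Against DMSO, 30 of 32 members rose with MDI and 1 fell (background 20.1% of entries higher and 18.3% lower), with a median change of 1.28 over the members and 0.0024 over all entries. With ROSI 30 rose and 2 fell (background 16.5% and 14.3%), with a median of 1.05. With TBT 29 rose and 3 fell (14.1% and 10.6%), with a median of 0.75. PP raised 28 and lowered 2 (12.0% and 8.24%), with a median of 0.69. BP raised 28 and lowered 1 (12.9% and 8.73%), with a median of 0.63. The counts were smaller in BPA, with 22 higher and 2 lower (12.3% and 6.97%) and a median of 0.40, and in BBP, with 23 higher and 1 lower (6.90% and 2.35%) and a median of 0.36. DEHP changed 0 members (0.0156% of entries in either direction) and EB 1 (0.681%), so few calls were made among all entries too. The 9 comparisons share the same 3 DMSO arrays and are not independent of one another.

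Called changes of at least 2-fold upward were found for 19 members with MDI (3.85% of all entries), 16 with ROSI (2.42%) and 8 with PP (1.06%). They were found for 7 with TBT (1.27%) and 6 with BP (0.946%). BPA (0.359%) and BBP (0.328%) had 1 each, Pcx in both. Quantile normalization lowered the median change to 0.80 with MDI, 0.17 with BPA and 0.12 with BBP. Under it the count in BBP fell from 24 to 9. The share of all entries called under this scaling is not given here or below, so member counts under it cannot be set against such a share.

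**Figure D2:**
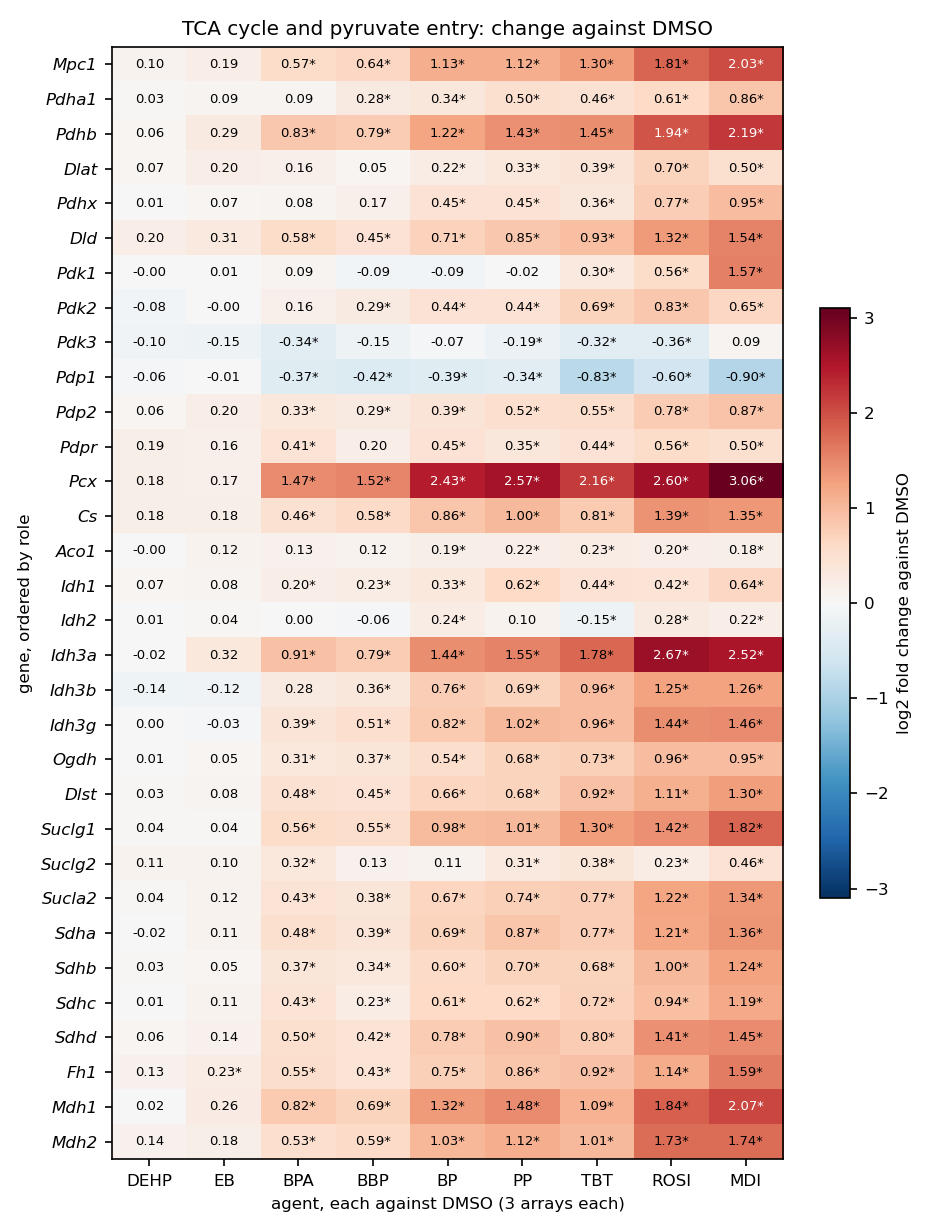
Rows are the 32 measured genes in order of role, columns the 9 agents, and each cell holds the log2 fold change against DMSO (3 arrays a group), coloured from blue (lower) to red (higher), with a star where the adjusted p was under 0.05. Pcx and Idh3a carry the darkest red, and Pdp1 is blue under every agent that changed it. Ogdh is the mean of 3 probes that disagree, and with quantile normalization Idh3a, Mdh1 and Mdh2 turn below 0 in BBP.

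Pcx and Mpc1, the 2 genes of pyruvate entry outside the dehydrogenase complex, were among the 5 members that rose most with MDI. Pcx, pyruvate carboxylase, which makes oxaloacetate from pyruvate, had the largest change of all members with MDI, TBT, BP, PP, BBP and BPA. Its levels were -1.90, -2.18 and -1.64 on the DMSO arrays and 1.21, 1.00 and 1.24 on the MDI arrays. They were 0.66, 0.64 and 0.79 with ROSI and 0.35, 0.19 and 0.22 with TBT. PP gave 0.63, 0.62 and 0.74 and BP 0.46, 0.41 and 0.70. All 15 of these arrays lay far above the highest DMSO array, and the TBT arrays were the lowest of the 5 groups. The change was 3.06 ± 0.11 (adjusted p = 1.55e-17) with MDI, or 8.32-fold, 2.60 ± 0.11 (adjusted p = 6.81e-16) with ROSI and 2.57 ± 0.11 (adjusted p = 4.91e-15) with PP. It was 2.43 ± 0.11 (adjusted p = 1.04e-14) with BP and 2.16 ± 0.11 (adjusted p = 6.28e-14) with TBT. BPA and BBP gave intermediate levels, -0.34, -0.48 and -0.49 and -0.51, -0.45 and -0.20, again above every DMSO array. Their changes were 1.47 ± 0.11 (adjusted p = 4.16e-10) and 1.52 ± 0.11 (adjusted p = 2.83e-10). EB (-1.57, -1.86 and -1.79) and DEHP (-1.76, -1.80 and -1.61) overlapped DMSO, whose own arrays spread widely for this gene.

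Mpc1, the measured subunit of the mitochondrial pyruvate carrier, had levels of -1.08, -1.12 and -1.16 in DMSO, 0.88, 0.92 and 0.93 in MDI and 0.69, 0.64 and 0.75 in ROSI. TBT stood at 0.22, 0.21 and 0.12, PP at -0.014, 0.068 and -0.042 and BP at -0.10, 0.090 and 0.028. These groups did not overlap DMSO, and PP and BP overlapped each other. The change was 2.03 ± 0.049 (adjusted p = 1.31e-20) with MDI, 1.81 ± 0.049 (adjusted p = 2.04e-19) with ROSI and 1.30 ± 0.049 (adjusted p = 3.09e-16) with TBT. It was close in BP (1.13 ± 0.049) and PP (1.12 ± 0.049), and smaller in BBP (0.64 ± 0.049) and BPA (0.57 ± 0.049). These last 2 calls were lost with quantile normalization, which gave 0.13 (adjusted p = 0.234) in BBP and 0.12 (adjusted p = 0.198) in BPA.

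All 5 measured subunits of the pyruvate dehydrogenase complex rose with MDI, ROSI, TBT, BP and PP, but by unequal amounts. Pdhb, the beta subunit of the pyruvate-decarboxylating enzyme, had the larger change beside Pdha1, the alpha subunit with which it forms the same enzyme. Pdhb had levels of -1.07, -1.15 and -1.20 in DMSO, 1.00, 1.06 and 1.09 in MDI and 0.87, 0.75 and 0.77 in ROSI. Pdha1 had levels of -0.33, -0.29 and -0.48 in DMSO, 0.46, 0.52 and 0.51 in MDI and 0.28, 0.24 and 0.23 in ROSI. Neither gene's MDI or ROSI arrays overlapped its DMSO arrays. With MDI Pdhb changed by 2.19 ± 0.078 (adjusted p = 1.45e-17) and Pdha1 by 0.86 ± 0.063 (adjusted p = 2.06e-11). With ROSI the changes were 1.94 ± 0.078 for Pdhb and 0.61 ± 0.063 for Pdha1, and with TBT 1.45 ± 0.078 and 0.46 ± 0.063. With BPA Pdhb rose by 0.83 ± 0.078 (adjusted p = 2.58e-08), and Pdha1 changed by 0.087 ± 0.063 with an adjusted p of 0.383. The difference between the 2 subunits was not itself tested.

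Dld, the lipoamide dehydrogenase that this complex shares with 2-oxoglutarate dehydrogenase, stood at -0.67, -0.59 and -0.73 in DMSO and 0.90, 0.86 and 0.85 in MDI. It changed by 1.54 ± 0.081 (adjusted p = 3.96e-14) with MDI, 1.32 ± 0.081 with ROSI and 0.93 ± 0.081 with TBT. Pdhx, which holds Dld in the complex, changed by 0.95 ± 0.074 with MDI and 0.77 ± 0.074 with ROSI, and was not called in BPA (0.084 ± 0.074) or BBP (0.17 ± 0.074). Dlat, the acetyltransferase core, was the smallest riser of the 5 with MDI. Its levels were -0.19, -0.29 and -0.19 in DMSO, 0.27, 0.32 and 0.25 in MDI and 0.47, 0.44 and 0.51 in ROSI, so the ROSI arrays all lay above the MDI arrays. The change was 0.70 ± 0.066 (adjusted p = 4.01e-09) with ROSI and 0.50 ± 0.066 (adjusted p = 5.86e-07) with MDI, and BPA (0.16 ± 0.066) and BBP (0.054 ± 0.066) did not pass the test.

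**Figure D3:**
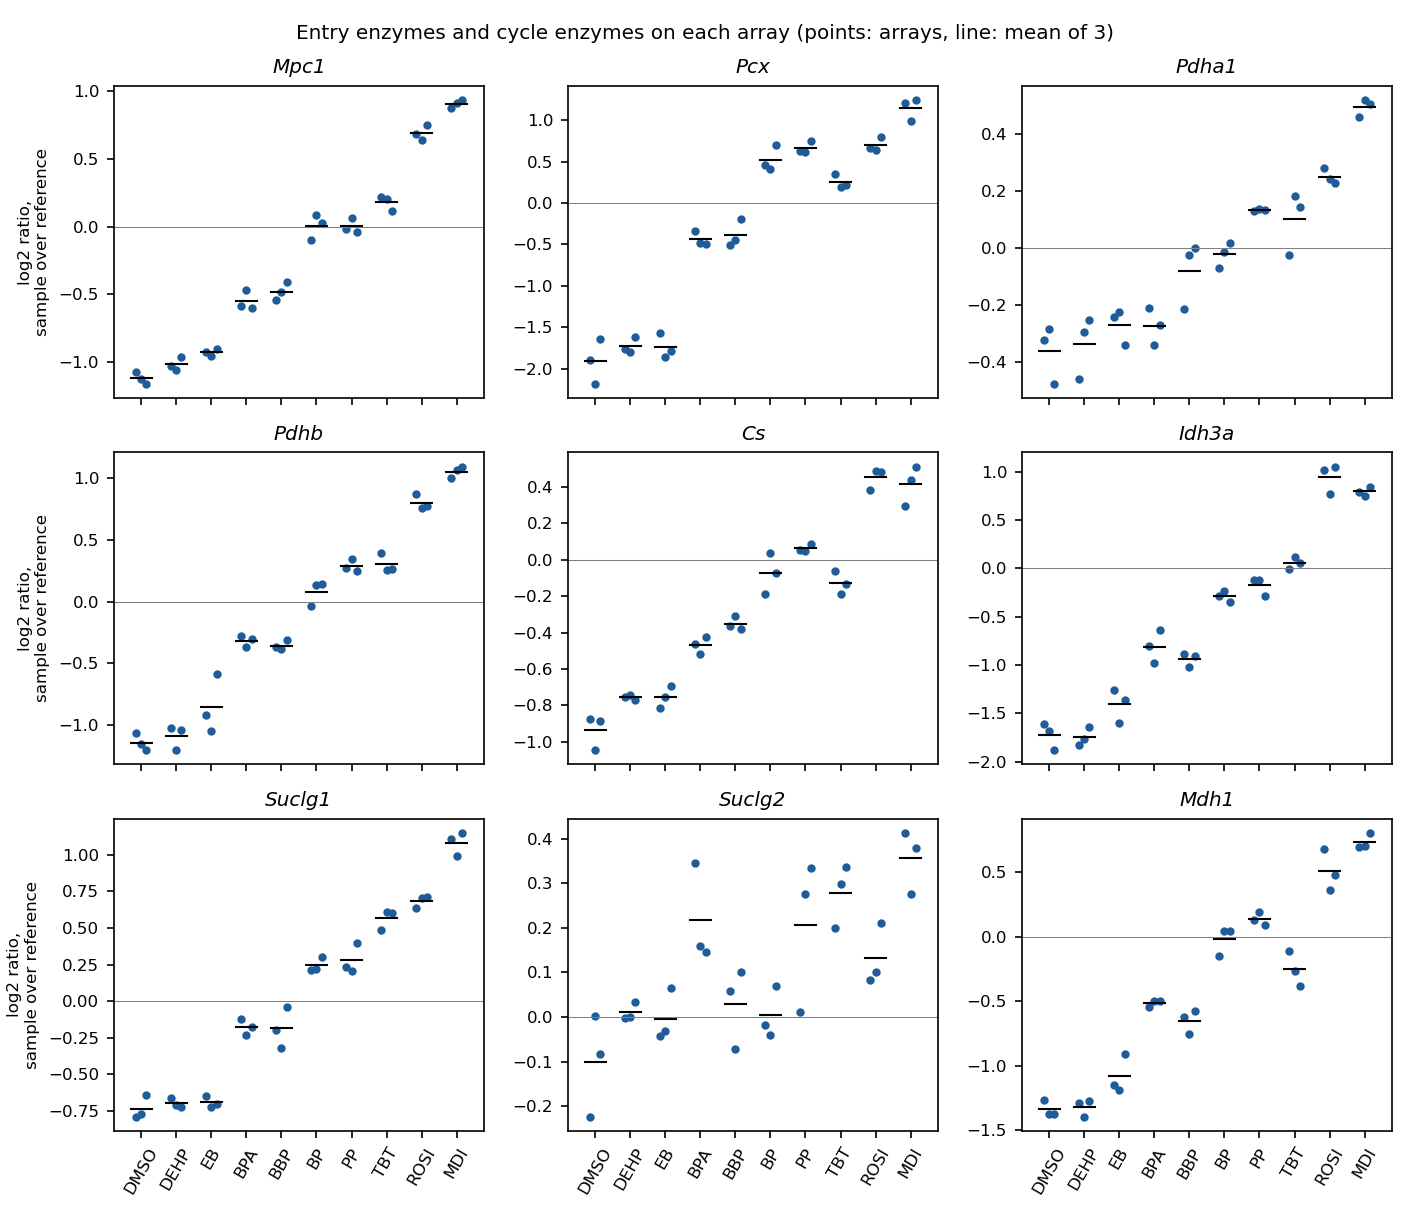
Points are single arrays and lines the means of 3, as log2 ratios to the reference, for 9 entry and cycle enzymes over the 10 groups, each panel with its own vertical axis. Pcx lies between -2.18 and -1.64 in DMSO and between 1.00 and 1.24 in MDI, while Suclg2 runs from -0.22 on a DMSO array to 0.41 on an MDI array.

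The 6 measured genes of the kinases and phosphatases that switch the pyruvate dehydrogenase complex off and on did not move together. The kinases Pdk1, Pdk2 and Pdk3 phosphorylate the alpha subunit and inactivate the complex, and the phosphatases, with catalytic subunits Pdp1 and Pdp2 and the regulatory subunit Pdpr, restore it. Pdk1 was raised mainly by MDI. Its levels were -0.50, -0.40 and -0.36 in DMSO, 1.08, 1.17 and 1.19 in MDI, 0.021, 0.21 and 0.18 in ROSI and -0.28, 0.14 and -0.22 in TBT. The other agents' arrays lay between -0.66 and -0.25, around the DMSO arrays. Pdk1 changed by 1.57 ± 0.10 (adjusted p = 1.98e-12) with MDI and by 0.56 ± 0.10 (adjusted p = 0.000100) with ROSI. With TBT the change was 0.30 ± 0.10 (adjusted p = 0.0310), and it rested on TBT replicate 2, without which it was 0.17 (adjusted p = 0.261). It was also lost with quantile normalization (0.14, adjusted p = 0.409), which in turn put Pdk1 lower with BP (-0.43, adjusted p = 0.00535) where the deposited scaling gave -0.085 ± 0.10 (adjusted p = 0.639).

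Pdk2 was higher with 6 agents, with its largest change in ROSI. Its levels were -0.53, -0.54 and -0.46 in DMSO, 0.19, 0.30 and 0.45 in ROSI, 0.082, 0.29 and 0.18 in TBT and 0.23, 0.052 and 0.14 in MDI, so the ROSI, TBT and MDI arrays overlap one another and lie above DMSO. It changed by 0.83 ± 0.085 (adjusted p = 1.83e-08) with ROSI, 0.69 ± 0.085 with TBT and 0.65 ± 0.085 with MDI. Pdk3 fell or stayed near its DMSO level. Its levels were 0.15, 0.11 and 0.013 in DMSO, -0.36, -0.24 and -0.18 in ROSI, -0.26, -0.25 and -0.18 in TBT, -0.28, -0.23 and -0.23 in BPA and 0.20, 0.14 and 0.23 in MDI. The ROSI, TBT and BPA arrays lay below every DMSO array, and the MDI arrays overlapped DMSO. Pdk3 changed by -0.36 ± 0.059 (adjusted p = 3.04e-05) with ROSI, -0.34 ± 0.059 (adjusted p = 0.000165) with BPA and -0.32 ± 0.059 (adjusted p = 0.000150) with TBT. With PP it was lower by a smaller step (-0.19 ± 0.059, adjusted p = 0.0235), and with MDI it was not called (0.095 ± 0.059, adjusted p = 0.232).

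Pdp1 and Pdp2, catalytic subunits with the same reaction, went opposite ways. Pdp1 levels were 0.39, 0.56 and 0.30 in DMSO, -0.49, -0.44 and -0.53 in MDI, -0.36, -0.43 and -0.46 in TBT and -0.14, -0.19 and -0.23 in ROSI. Pdp2 levels were -0.28, -0.56 and -0.32 in DMSO, 0.51, 0.39 and 0.54 in MDI, 0.081, 0.27 and 0.14 in TBT and 0.28, 0.30 and 0.58 in ROSI. The DMSO arrays were thus the highest of these for Pdp1 and the lowest for Pdp2, without overlap. Pdp1 fell with 7 agents, with changes of -0.90 ± 0.073 (adjusted p = 1.61e-10) with MDI, -0.83 ± 0.073 (adjusted p = 2.23e-09) with TBT, -0.60 ± 0.073 (adjusted p = 3.36e-07) with ROSI and -0.42 ± 0.073 with BBP. It was the only member lower with MDI, with BP and with BBP. Pdp2 rose with the same 7 agents, by 0.87 ± 0.081 (adjusted p = 1.98e-09) with MDI and 0.78 ± 0.081 (adjusted p = 2.68e-08) with ROSI. Pdpr rose with 6 agents, by 0.56 ± 0.072 (adjusted p = 6.30e-07) with ROSI and 0.50 ± 0.072 (adjusted p = 2.56e-06) with MDI, and with BBP it was not called (0.20 ± 0.072).

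Pdk4, the kinase known to be induced by fasting and by PPAR ligands, is not one of the 33 genes and is given here beside its relatives. Its levels were -0.40, -0.58 and -0.47 in DMSO, 1.04, 1.09 and 1.27 in ROSI, 1.33, 1.21 and 1.07 in TBT and -0.59, -0.56 and -0.80 in MDI. The ROSI and TBT arrays all lay above 1, and the arrays of the other agents were at -0.36 or lower. Pdk4 changed by 1.62 ± 0.071 (adjusted p = 1.42e-15) with ROSI and 1.68 ± 0.071 (adjusted p = 1.85e-15) with TBT, and was not called with MDI (-0.17 ± 0.071, adjusted p = 0.0614). Thus Pdk1 was highest with MDI, and Pdk4 was high with ROSI and TBT.

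**Figure D4:**
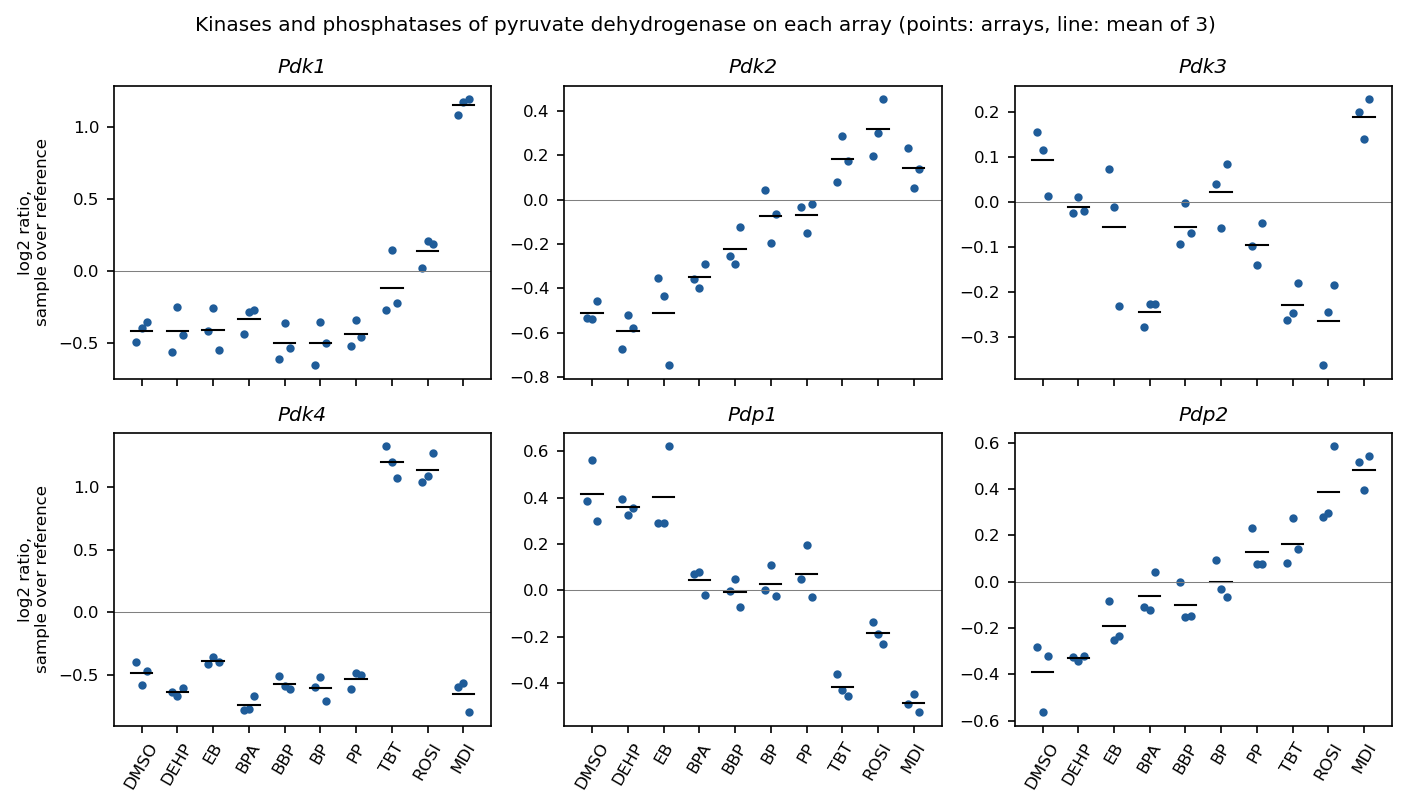
Points are single arrays and lines the means of 3, as log2 ratios to the reference, for the kinases and phosphatase subunits of pyruvate dehydrogenase and Pdk4 over the 10 groups, each panel with its own vertical axis. Pdk1 exceeds 1 on the MDI arrays alone, Pdk4 on the ROSI and TBT arrays alone, and Pdp1 falls from DMSO (0.30 to 0.56) to MDI (-0.53 to -0.44) while Pdp2 rises.

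Cs, citrate synthase, which joins acetyl-CoA and oxaloacetate, stood at -0.87, -1.05 and -0.89 in DMSO, 0.29, 0.44 and 0.51 in MDI, 0.38, 0.49 and 0.48 in ROSI and -0.061, -0.19 and -0.13 in TBT. The MDI and ROSI arrays overlapped, and TBT lay between them and DMSO. Cs changed by 1.39 ± 0.058 (adjusted p = 6.31e-16) with ROSI, 1.35 ± 0.058 (adjusted p = 5.80e-16) with MDI and 1.00 ± 0.058 (adjusted p = 1.40e-12) with PP. Aco1, the cytosolic aconitase that also acts as an iron-regulated RNA-binding protein, was the smallest riser with MDI (0.18 ± 0.065, adjusted p = 0.0278) and ROSI (0.20 ± 0.065, adjusted p = 0.0176). Its MDI levels (0.026, -0.10 and 0.22) overlapped those of DMSO (-0.17, -0.13 and -0.094), and the MDI call was lost without MDI replicate 3, DMSO replicate 1 or DMSO replicate 2.

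Idh3a, Idh3b and Idh3g make up the mitochondrial NAD-dependent isocitrate dehydrogenase, while Idh1 (cytosolic) and Idh2 (mitochondrial) are NADP-dependent. With MDI, ROSI and TBT each Idh3 subunit had a larger change than Idh1 and Idh2, a difference between genes that was not tested. In EB the order was mixed, and in BPA Idh1 was called higher (0.20 ± 0.061) and Idh3b was not (0.28 ± 0.11). Idh3a, the catalytic subunit, had levels of -1.61, -1.68 and -1.88 in DMSO, 1.02, 0.77 and 1.05 in ROSI, 0.79, 0.75 and 0.84 in MDI and -0.0077, 0.12 and 0.052 in TBT. PP (-0.12, -0.12 and -0.29) and BP (-0.28, -0.23 and -0.35) followed, all clear of DMSO. The change was 2.67 ± 0.091 (adjusted p = 1.13e-17) with ROSI, the largest of any member there, 2.52 ± 0.091 (adjusted p = 1.85e-17) with MDI and 1.78 ± 0.091 (adjusted p = 7.77e-14) with TBT. With BPA it was 0.91 ± 0.091 (adjusted p = 5.53e-08), and this call was lost with quantile normalization (0.18, adjusted p = 0.183). With BBP it was 0.79 ± 0.091 (adjusted p = 9.70e-07), and quantile normalization turned it to -0.21 (adjusted p = 0.171). The regulatory subunits changed less, Idh3g by 1.46 ± 0.054 (adjusted p = 2.98e-17) and Idh3b by 1.26 ± 0.11 (adjusted p = 2.97e-10) with MDI.

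Idh1 changed by 0.64 ± 0.061 (adjusted p = 2.42e-09) with MDI and by 0.62 ± 0.061 (adjusted p = 1.72e-08) with PP, and by 0.42 ± 0.061 with ROSI. Idh2 had the narrowest range of these enzymes. Its levels were -0.11, -0.16 and -0.14 in DMSO, 0.11, 0.043 and 0.10 in MDI, 0.14, 0.080 and 0.22 in ROSI, 0.039, 0.12 and 0.15 in BP and -0.24, -0.32 and -0.30 in TBT. The TBT arrays lay below every DMSO array and those of MDI, ROSI and BP above. Idh2 changed by 0.28 ± 0.049 (adjusted p = 5.92e-05) with ROSI, 0.24 ± 0.049 (adjusted p = 0.000753) with BP, 0.22 ± 0.049 (adjusted p = 0.000760) with MDI and -0.15 ± 0.049 (adjusted p = 0.0250) with TBT. The TBT call was lost without TBT replicate 2, TBT replicate 3 or DMSO replicate 1 (adjusted p from 0.0720 to 0.0942) and in a fit of the 2 groups alone (adjusted p = 0.0562).

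Dlst, the succinyltransferase of the 2-oxoglutarate dehydrogenase complex, had levels of -0.76, -0.75 and -0.59 in DMSO, 0.57, 0.56 and 0.66 in MDI and 0.33, 0.42 and 0.48 in ROSI, with no overlap among the 3 groups. It changed by 1.30 ± 0.056 (adjusted p = 6.02e-16) with MDI and 1.11 ± 0.056 (adjusted p = 2.20e-14) with ROSI. Ogdh, the decarboxylating subunit, changed by 0.95 ± 0.056 (adjusted p = 2.95e-13) with MDI and 0.96 ± 0.056 (adjusted p = 3.94e-13) with ROSI as the mean of 3 probes. These probes disagreed: 2 of them gave 1.48 and 1.28 with MDI and the remaining one gave 0.082. With that probe alone the Ogdh change was -0.034 with ROSI and -0.20 with BP (adjusted p = 0.0201), where the mean gave 0.54 ± 0.056.

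Succinyl-CoA ligase pairs the shared alpha subunit Suclg1 with Sucla2, for the ADP-forming enzyme, or Suclg2, for the GDP-forming one. Suclg1 levels were -0.79, -0.77 and -0.64 in DMSO, 1.11, 0.99 and 1.15 in MDI, 0.64, 0.70 and 0.71 in ROSI and 0.49, 0.61 and 0.60 in TBT. Sucla2 levels were -0.71, -0.78 and -0.81 in DMSO, 0.68, 0.49 and 0.57 in MDI, 0.44, 0.44 and 0.49 in ROSI and 0.028, -0.024 and 0.019 in TBT. Suclg2 levels were -0.22, 0.0015 and -0.083 in DMSO, 0.41, 0.28 and 0.38 in MDI, 0.082, 0.10 and 0.21 in ROSI and 0.20, 0.30 and 0.34 in TBT. The arrays of the first pair separated widely from DMSO, while those of Suclg2 stayed close to it. With MDI Suclg1 changed by 1.82 ± 0.062 (adjusted p = 5.23e-18), Sucla2 by 1.34 ± 0.056 (adjusted p = 3.86e-16) and Suclg2 by 0.46 ± 0.073 (adjusted p = 1.26e-05). With ROSI the changes were 1.42 ± 0.062, 1.22 ± 0.056 and 0.23 ± 0.073 in the same order. With BP Suclg2 was not called (0.11 ± 0.073, adjusted p = 0.362).

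The 4 subunits of succinate dehydrogenase, which is also complex II of the respiratory chain, rose with 7 agents each and by close amounts. Sdha, the flavoprotein that oxidises succinate, had levels of -0.83, -0.75 and -0.83 in DMSO, 0.51, 0.62 and 0.56 in MDI and 0.53, 0.29 and 0.41 in ROSI. Sdhd, a membrane anchor, had levels of -0.63, -0.61 and -0.56 in DMSO, 0.77, 0.93 and 0.86 in MDI and 0.78, 0.81 and 0.85 in ROSI. For both genes the MDI and ROSI arrays overlapped and lay above DMSO. With MDI the changes were 1.45 ± 0.050 for Sdhd, 1.36 ± 0.053 for Sdha, 1.24 ± 0.035 for Sdhb, the iron-sulphur subunit, and 1.19 ± 0.055 for Sdhc, the other anchor. With BP they ran from 0.60 ± 0.035 for Sdhb to 0.78 ± 0.050 for Sdhd. With BBP they ran from 0.23 ± 0.055 for Sdhc to 0.42 ± 0.050 for Sdhd, and with quantile normalization the Sdha and Sdhc calls in BBP were lost.

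Fh1, fumarase, changed by 1.59 ± 0.055 (adjusted p = 7.02e-18) with MDI, 1.14 ± 0.055 with ROSI and 0.92 ± 0.055 with TBT. Mdh1, the cytosolic malate dehydrogenase, and Mdh2, the mitochondrial one, catalyse the same reaction on either side of the membrane. Mdh1 had levels of -1.27, -1.37 and -1.37 in DMSO, 0.69, 0.70 and 0.81 in MDI, 0.68, 0.36 and 0.48 in ROSI, 0.13, 0.19 and 0.094 in PP and -0.11, -0.26 and -0.38 in TBT. All TBT arrays lay below all PP arrays, as for Pcx and Cs. Mdh2 had levels of -1.23, -1.39 and -1.12 in DMSO, 0.52, 0.53 and 0.43 in MDI, 0.56, 0.26 and 0.64 in ROSI and -0.27, -0.19 and -0.25 in TBT. Mdh1 changed by 2.07 ± 0.080 (adjusted p = 6.22e-17) with MDI and 1.09 ± 0.080 (adjusted p = 6.75e-11) with TBT, and Mdh2 by 1.74 ± 0.085 (adjusted p = 6.90e-15) and 1.01 ± 0.085 (adjusted p = 7.93e-10). With BBP the changes were 0.69 ± 0.080 for Mdh1 and 0.59 ± 0.085 for Mdh2, and quantile normalization took both to just below 0 (-0.00069 and -0.067).

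Across agents, 20 of the 32 members were higher with each of the 7 agents other than EB and DEHP, as were 4.24% of all entries. These 7 comparisons share the DMSO arrays. With quantile normalization only 8 members were higher in BBP against DMSO, where 23 were as deposited. At most 8 could then be higher with all 7 agents. Ogdh is counted among the 20 as the mean of 3 probes that disagree, and its first probe was lower with BP (-0.20). One of the 20, Fh1, was also higher with EB. Pdha1, Pdk2, Pdpr and Idh3b were higher with 6, and Dlat, Pdhx, Aco1 and Suclg2 with 5. Pdk1 and Idh2 were higher with 3. Pdk3 and Pdp1 were higher with 0.

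In the EB and DEHP groups the members stayed close to DMSO, with a larger step in EB than in DEHP. The median change of the members was 0.11 with EB and 0.032 with DEHP, against 0.0053 and 0.0046 over all entries. With EB 27 of the 32 changes were above 0 and 5 below, and with DEHP 24 and 8. Of the adipocyte markers, Fabp4 (0.86 ± 0.13), Cd36 (0.52 ± 0.099) and Lpl (0.36 ± 0.058) were called higher with EB, and the rest were not called. With DEHP 0 members were called by limma, where 0.0156% of entries were, and 5 members, all higher, had an unadjusted p under 0.05, against 11.2% of all entries. The 95% intervals of the 32 changes lay between -0.36 and 0.41. The Pcx change had an interval of -0.044 to 0.41 and the Idh3a change one of -0.21 to 0.17. With EB 1 member was called, Fh1, where 0.681% of entries were, and 14 members, 13 of them higher, had an unadjusted p under 0.05, against 13.2% of all entries. Fh1 levels were -0.53, -0.55 and -0.30 with EB against -0.72, -0.70 and -0.65 with DMSO, without overlap. The change was 0.23 ± 0.055 (adjusted p = 0.0487), and it was not called with quantile normalization, array weights, robust variances or a fit of the 2 groups alone. Pdhb (0.29 ± 0.078, adjusted p = 0.0819), Dld (0.31 ± 0.081, adjusted p = 0.0716) and Idh3a (0.32 ± 0.091, adjusted p = 0.0980) had larger changes in EB without being called. For Fh1 and these genes apart from Idh3a, EB replicate 3 stood above the other EB arrays, as for Pdhb (-0.92, -1.05 and -0.59) and Dld (-0.38, -0.60 and -0.076). The 95% intervals of the EB changes lay between -0.33 and 0.51. Without EB replicate 2, 5 members were called, namely Fh1, Dlat, Dld, Idh3a and Pdhb. Without EB replicate 3, or without DMSO replicate 1, 2 or 3, 0 were called.

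ROSI, a PPARγ agonist, and the MDI mixture were compared with each other directly. With ROSI 2 members were higher than with MDI and 15 lower (background 9.47% and 10.8%), with a median difference of -0.17. With quantile normalization 6 were called, 4 higher and 2 lower, and the median turned to 0.044. Without MDI replicate 3, 11 were called. Pdk1, Pdk3 and Pdp1 passed under both scalings, and Idh3a (0.35, adjusted p = 0.00594), Idh3g (0.19, adjusted p = 0.0192) and Sdhd (0.21, adjusted p = 0.0172) were called higher with ROSI after quantile normalization alone. The largest difference was that of Pdk1, -1.01 ± 0.10 (adjusted p = 2.89e-08). Pdk3 differed by -0.45 ± 0.059 (adjusted p = 2.04e-06), lower with ROSI, and Pdp1 by 0.30 ± 0.073 (adjusted p = 0.00351), higher with ROSI. Pcx (-0.45 ± 0.11, adjusted p = 0.00326) and Fh1 (-0.45 ± 0.055, adjusted p = 6.71e-07) were lower with ROSI as deposited, and with quantile normalization they were not called. Suclg1 (-0.40 ± 0.062, adjusted p = 2.26e-05) was lower with ROSI as deposited and at 0.0048 after quantile normalization. Dlat was higher with ROSI by 0.19 ± 0.066 (adjusted p = 0.0394), and this was not called after quantile normalization (0.19, adjusted p = 0.0719). Outside the members, Pdk4 was higher with ROSI by 1.79 ± 0.071 (adjusted p = 1.09e-15).

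TBT, an organotin known to bind RXR and PPARγ, was set against both. With TBT 0 members were higher and 26 lower than with MDI (background 12.5% and 15.7%), with a median difference of -0.51. The lowest were Pdk1 (-1.27 ± 0.10, adjusted p = 4.27e-10), Mdh1 (-0.98 ± 0.080, adjusted p = 4.93e-10), Pcx (-0.89 ± 0.11, adjusted p = 4.78e-07) and Pdhb (-0.75 ± 0.078, adjusted p = 3.94e-08). With quantile normalization 16 were lower and 0 higher, the Pdhb call was lost, and Idh1, Idh3b and Suclg1 turned above 0 without being called. Outside the members, of 38 other genes around the cycle 7 were higher and 19 lower with TBT than with MDI (12.5% and 15.7% of all entries). Among them Ldha, a lactate dehydrogenase subunit, differed by -1.64 ± 0.081 and Pdk4 by 1.85 ± 0.071. Against ROSI, TBT had 0 members higher and 21 lower (7.31% and 10.4%), with a median difference of -0.30. The lowest were Idh3a (-0.89 ± 0.091, adjusted p = 8.26e-08), Mdh1 (-0.76 ± 0.080, adjusted p = 1.42e-07), Mdh2 (-0.72 ± 0.085, adjusted p = 7.69e-07) and Sdhd (-0.62 ± 0.050, adjusted p = 1.88e-09). Idh2 was lower with TBT than with ROSI (-0.43 ± 0.049, adjusted p = 4.87e-07) and than with MDI (-0.37 ± 0.049, adjusted p = 1.72e-06), and this held with quantile normalization. The difference between TBT and ROSI did not pass the test for Suclg1, with a 95% interval of -0.25 to 0.0071, or for Pdk2, with one of -0.31 to 0.040.

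DEHP and BBP are both diesters of phthalic acid, DEHP with a branched alkyl chain on each ester group and BBP with a benzyl and a butyl group. Their doses are not given, so the values stand side by side as measured. With DEHP 1 member was higher than with BBP and 20 were lower (0.915% and 4.77%), with a median difference of -0.32. Pcx stood at -1.76, -1.80 and -1.61 with DEHP and -0.51, -0.45 and -0.20 with BBP, and Mdh1 at -1.29, -1.39 and -1.27 and -0.63, -0.75 and -0.57, both without overlap. The largest differences were those of Pcx (-1.34 ± 0.11, adjusted p = 3.90e-09), Idh3a (-0.81 ± 0.091, adjusted p = 8.76e-07), Pdhb (-0.73 ± 0.078, adjusted p = 3.93e-07) and Mdh1 (-0.67 ± 0.080, adjusted p = 1.98e-06). The member higher with DEHP was Pdp1 (0.37 ± 0.073, adjusted p = 0.00189). With quantile normalization 6 were lower and 1 higher, and Idh3a and Mdh2 turned above 0 (0.14 and 0.097) without being called. For Suclg2 the interval of the difference was -0.17 to 0.13, and for Dlat it was -0.12 to 0.15.

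**Figure D5:**
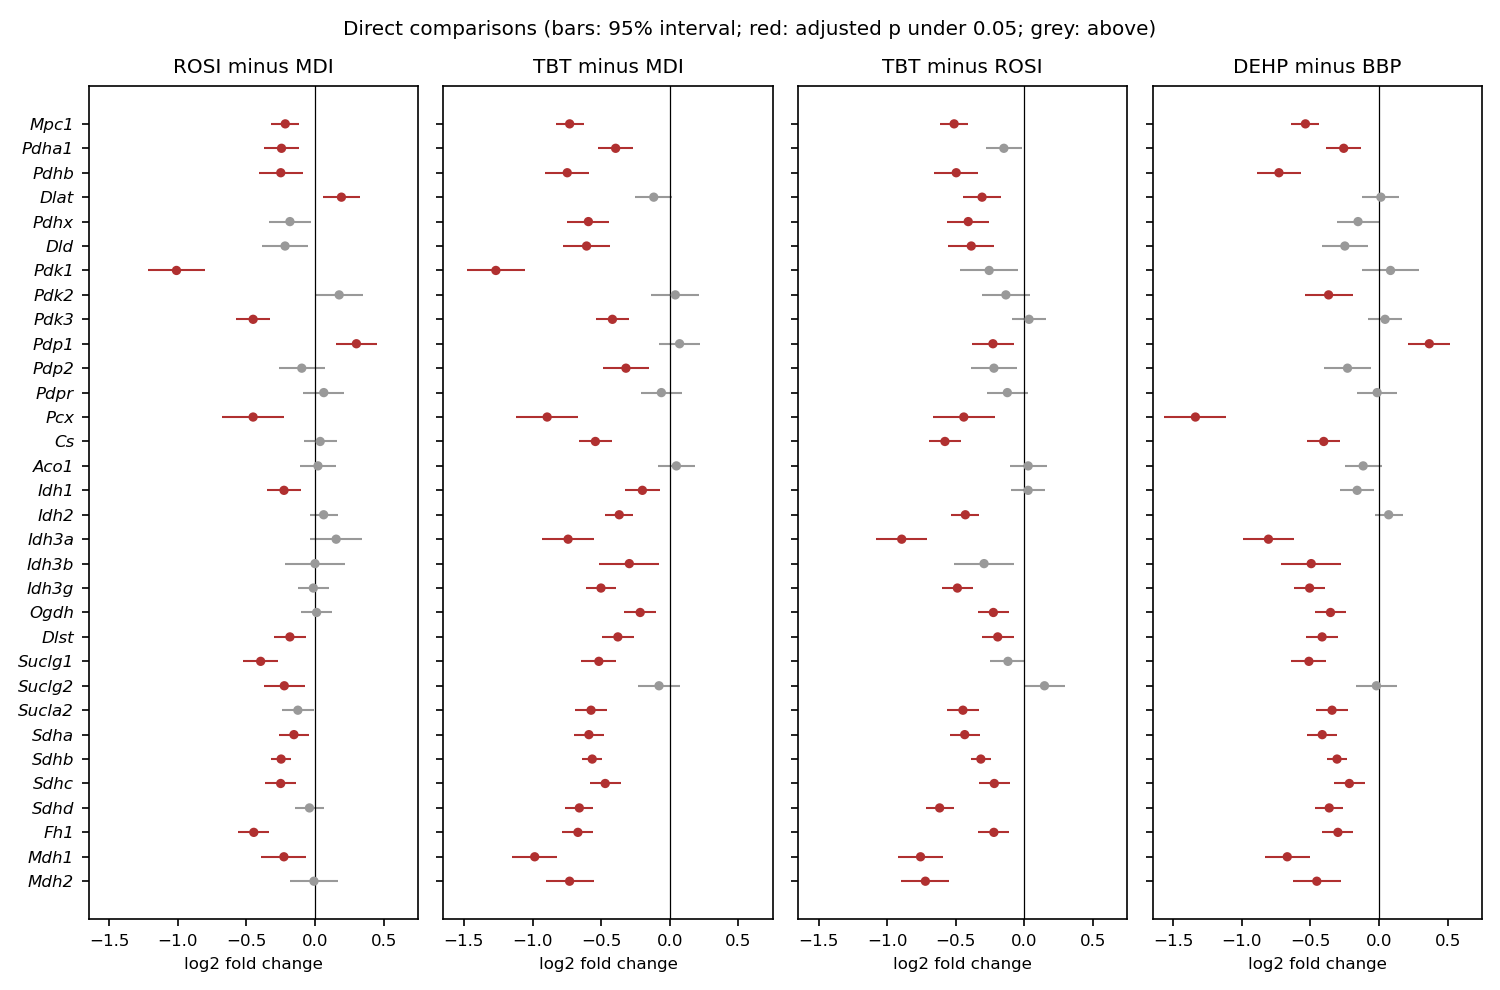
Points are log2 differences between 2 groups of 3 arrays for the 32 genes, bars their 95% intervals, red where the adjusted p was under 0.05 and grey otherwise. TBT lies left of 0 against MDI and ROSI for most genes, DEHP lies left of BBP except for Pdp1 among the called genes, and ROSI against MDI shows Pdk1 at the far left. Of the genes called under either scaling, 8 change side with quantile normalization in the first panel, 3 in the second and 2 in the last.

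When a change of at least 1.5-fold was also asked for, in either direction, the members kept high counts where the changes were large. MDI had 26 (9.64% of all entries), ROSI 25 (6.29%), TBT 21 (4.53%), PP 20 (3.37%) and BP 18 (3.03%). BBP had 6 (1.09%), BPA 4 (1.89%) and EB 0 (0.0104%). In the direct comparisons TBT against MDI had 12 (4.47%), TBT against ROSI 4 (1.55%), DEHP against BBP 4 (0.806%) and ROSI against MDI 1 (3.22%), which was Pdk1.

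A list of other genes around the cycle had 38 measured genes. It covered lactate and pyruvate, lipoate attachment, aconitase and iron regulation, related dehydrogenases, assembly of succinate dehydrogenase, and entry and exit of cycle intermediates. Of the 38, 22 rose and 3 fell with MDI (background 20.1% of entries higher and 18.3% lower). With ROSI 24 rose and 3 fell (16.5% and 14.3%), and with TBT 24 and 0 (14.1% and 10.6%). PP gave 21 and 0 (12.0% and 8.24%), and BP 20 and 1 (12.9% and 8.73%). BPA gave 14 higher and 1 lower (12.3% and 6.97%), and BBP 10 and 0 (6.90% and 2.35%). EB gave 2 and 0 (0.681% in either direction), and DEHP 0 and 0 (0.0156% in either direction). The median change of the list was 0.37 with MDI, below the 1.28 of the members. Pck1, the cytosolic carboxykinase that takes oxaloacetate toward glycerol and glucose, changed by 4.54 ± 0.096 with MDI, 4.39 ± 0.096 with ROSI and 2.92 ± 0.096 with TBT. Ldhb, a lactate dehydrogenase subunit, changed by 2.46 ± 0.051 with MDI and 1.57 ± 0.051 with TBT. Bckdhb, the beta subunit of the branched-chain ketoacid dehydrogenase, changed by 2.01 ± 0.050 with ROSI. Lias, which makes the lipoate that Dlat and Dlst carry, changed by 1.02 ± 0.038 with MDI. Me1 and Acly, which with malate and citrate supply NADPH and acetyl-CoA for fat synthesis, changed by 1.31 ± 0.047 and 1.79 ± 0.067 with MDI. Nnt, the mitochondrial transhydrogenase, fell, with changes of -0.79 ± 0.050 with MDI and -0.30 ± 0.050 with ROSI. Slc25a12, an aspartate-glutamate carrier, changed by -0.41 ± 0.053 with MDI. With EB the 2 called were Lias (0.17 ± 0.038) and Me1 (0.20 ± 0.047).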

How the data were processed

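Gene expression was measured on 30 two-colour arrays, and the values used were the series' deposited table of log2 ratios, 1 column per sample and 23460 probes. Per the labels, samples carried Cy3 and the common reference Cy5. The submitters' processing notes name limma without a version; the background correction and the normalization are not given in the sources used here. The log base is not stated, and the values were read as log2. For 8 agents the differences from DMSO, with the sign turned, equalled the log fold changes that the authors deposited, to within 5e-08. This showed that the sign had to be turned to read sample over reference. It could not show the base, which both sets of values would share, so every fold value rests on the reading as log2. Deposited p-values were not used in any test.

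Probes were named through the platform annotation: 18966 had 1 gene symbol, 4468 had none and stayed as their own entries, and 26 control probes were left out. Probes of a gene were averaged, which gave 19231 entries, and 24 of the 32 measured members rested on 1 probe. Arrays were used as deposited, with medians from -0.0032 to 0.014 and interquartile ranges from 0.13 to 0.27, and no 2 arrays correlated above 0.8924, so none was treated as a duplicate. Limma 3.58.1 in R 4.3.3 fitted 10 group means to all 30 arrays (lmFit and eBayes), and p-values were adjusted over all entries by Benjamini-Hochberg for each of 13 comparisons, 9 with DMSO and 4 direct, and for the F test over the groups. The fit was tested on simulated data. Figures were drawn with matplotlib 3.10.9.

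The members and lists were chosen with earlier results of these data known. Every measured member is accounted for; values are given for up to 6 called members with the largest change in each direction in each comparison with DMSO (4 in direct ones), for those that depart from their role, and for up to 4 of the other pathway genes each way with the smallest p. Only in PP against DMSO did the deviations of all 3 same-numbered arrays correlate above 0.1, at 0.127, 0.207 and 0.166. In the other comparisons at least 1 correlation was 0.1 or less. Correlations of differently numbered arrays are not given, so these values do not show whether the arrays were paired. With the replicate block PP against DMSO called the same 30 members. No probe filter on intensity could be run, since the table holds ratios only.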

Additional observations from a re-analysis of the deposited data

How the results depend on the processing

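Most member counts changed little with the processing, and the largest shifts came from quantile normalization between arrays and from the fold limit. With quantile normalization 9 members were called in BBP against DMSO (24 as deposited), 0 in EB, 6 in ROSI against MDI (17), 16 in TBT against MDI (26) and 7 in DEHP against BBP (21). How many of all entries kept their calls under quantile normalization is not given, so a loss particular to the members cannot be read from these counts. It turned Idh3a (-0.21), Mdh1 (-0.00069) and Mdh2 (-0.067) below 0 in BBP against DMSO. In ROSI against MDI it turned Mpc1 (0.091), Pdhb (0.12), Idh3g (0.19), Dlst (0.0020), Suclg1 (0.0048), Sdha (0.021), Sdhd (0.21) and Mdh1 (0.029) above 0, and of these Idh3g and Sdhd then passed the test. In TBT against MDI it did so for Idh1 (0.041), Idh3b (0.046) and Suclg1 (0.091), and in DEHP against BBP for Idh3a (0.14) and Mdh2 (0.097). The cause was not tested. With the first probe of each gene, Ogdh changed by -0.034 in ROSI and -0.20 in BP against DMSO, by 0.079 in TBT against ROSI and by 0.0028 in DEHP against BBP, since that probe disagrees with the others, and EB had 2 calls. EB had 0 calls with robust variances, with array weights and in a fit of the 2 groups alone. Asking also for 1.5-fold left 21 members in TBT, 4 in BPA, 6 in BBP, 18 in BP and 0 in EB against DMSO, 1 in ROSI against MDI, 12 in TBT against MDI, 4 in TBT against ROSI and 4 in DEHP against BBP, by its construction.

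Leaving out 1 array at a time gave 30 to 31 calls in MDI, 30 to 32 in ROSI, 30 to 32 in TBT, 22 to 24 in BPA, 20 to 23 in BBP, 0 in DEHP, 27 to 29 in BP, 0 to 5 in EB and 28 to 30 in PP against DMSO. The direct comparisons gave 11 to 15 in ROSI against MDI (11 without MDI replicate 3), 24 to 26 in TBT against MDI, 19 to 22 in TBT against ROSI and 18 to 21 in DEHP against BBP, and the F test 31 to 32. The replicate block moved 1 count, TBT against ROSI, from 21 to 22 by adding Pdk1, and changed no other count of member calls. Signal over background is unknown, so a small change may reflect a dim probe, and this was not tested.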

Other observations

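Of the 8 members measured by several probes, 7 gave changes against DMSO that differed between probes by at most 0.076 to 0.31, the widest being Dld with ROSI. Ogdh differed by up to 1.63, also with ROSI, where its 3 probes gave -0.034, 1.59 and 1.31.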
